A study of Mus musculus with 28 samples.

Results

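The 9 enzymes described here belong to 3 lipid mediator routes and were found by symbol: Enpp2 and Pla2g7 of lysophospholipid metabolism, Acer2, Acer3, Sphk1 and Sgpl1 of the ceramide and sphingosine route, and Ptgs1, Ptgs2 and Ptges of prostaglandin synthesis. They are 9 of 55291 genes in the deposited tables, and all 9 passed the filter on low values in each table. Sphk1 at 32 h passed it through 3 control libraries and 1 BAY-876 library, and Enpp2 and Acer2 on day 16 through the 5 tumour libraries, with 1 OT1 library for Acer2. Their lower levels in the other groups are therefore given as descriptions. The members were picked with earlier results of these same libraries in view, so the adjusted p-values given below place a gene among all genes measured and are no independent test. The libraries are mouse RNA-seq libraries in 8 groups. LLC cells, a Lewis lung carcinoma line with the genotype label WT, received 200 nM BAY-876, an inhibitor of the glucose transporter GLUT1, or vehicle for 36 h (3 libraries each). In a second experiment LLC cells were pretreated with 200 nM BAY-876 for 24 h or not, and then given 20 ng/ml of the cytokine TNF or none for 32 h, which makes the groups BAY-876 with TNF, TNF, BAY-876 and control (3 libraries each). In the in vivo experiment, LLC-OVA-NGFR tumours grew under the skin of Rag1-deficient mice, a strain without mature lymphocytes. Activated OT1 T cells, whose receptor recognises an ovalbumin peptide, were transferred on day 9, and OT1 cells and tumour cells were sorted on day 16 (5 libraries each). For 2 of the libraries of BAY-876 with TNF the treatment label carries another compound number than the title, and both were grouped by title. The labels do not say that libraries of a group came from separate cultures or animals, so p-values measure the spread between libraries, which may be technical.

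Enpp2 encodes autotaxin, a secreted enzyme that makes the signalling lipid lysophosphatidic acid, and Pla2g7 encodes the secreted hydrolase that inactivates platelet-activating factor and cuts oxidised phospholipids. Ceramidases release sphingosine from ceramide, sphingosine kinase turns it into sphingosine 1-phosphate, and the lyase Sgpl1 breaks that product down irreversibly. The cyclooxygenases Ptgs1 and Ptgs2 convert arachidonic acid to prostaglandin H2, from which Ptges, the microsomal prostaglandin E synthase, makes prostaglandin E2, a mediator known for restraining T cells in tumours.

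The 32 h and day 16 tables hold TPM, the transcript abundance scaled by the authors to 1000000 in each library, so sequencing depth is unknown. The 36 h table holds normalised counts, summing to between 16847994 and 17134536 per library. In the 32 h cultures the summed level of 15 myeloid markers was 18.4 to 30.9 TPM, with 7 to 9 of the markers at 0 in every library of a group, and the summed level of 10 T cell markers was 2.41 to 7.74 TPM. The 10 markers of LLC cells summed to 2488 to 2673 TPM under BAY-876 with TNF, 3106 to 3172 under TNF, 4465 to 4590 under BAY-876 and 5128 to 5314 in control cells, so the sum of this list was lower in each treated group than in control cells.

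A member was called when its limma adjusted p over all genes tested was under 0.05. BAY-876 raised 2 and lowered 1 of the 9 members at 36 h, where 14.4% of all 12937 genes tested were called (7.34% higher and 7.1% lower). At 32 h BAY-876 raised 1 and lowered 4, against 37.4% of 12780 genes called (11.5% higher and 25.8% lower). TNF raised 3 and lowered 4, against 45.6% of genes called (19.4% higher and 26.1% lower). BAY-876 with TNF against control raised 4 and lowered 5, against 58.8% called (20.9% higher and 37.9% lower). BAY-876 with TNF against TNF raised 2 and lowered 2, against 34% called (10.4% higher and 23.6% lower). BAY-876 with TNF against BAY-876 raised 4 and lowered 3, against 44.2% called (19.3% higher and 24.8% lower). In the same order of comparisons the libraries of both groups did not overlap for 5, 6, 7, 8, 4 and 8 members, against 36.7%, 50.9%, 55.9%, 63%, 45% and 52.6% of all genes tested. The lowered members include Sphk1 for TNF and for both agents against control. These counts describe genes picked with the values known and are not read as a property of the set. The median log2 difference of the members was 0.03 for BAY-876 at 36 h, -0.39 for BAY-876 at 32 h and -0.15 for TNF, against -0.00, -0.09 and -0.06 over all genes tested.

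**Figure D1:**
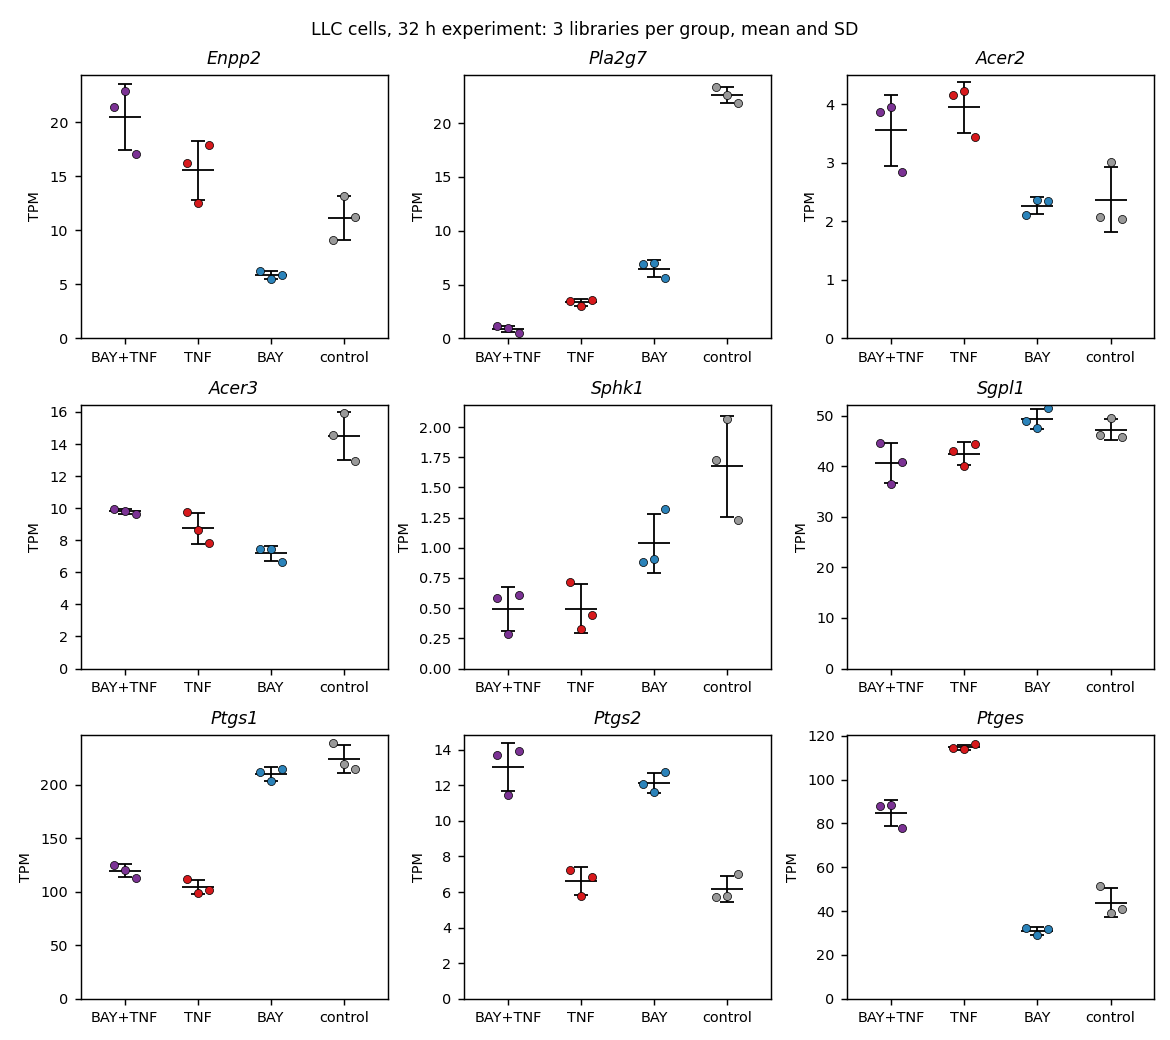
Levels of the 9 enzymes in LLC cells of the 32 h experiment, in TPM on linear axes from 0, for BAY-876 with TNF, TNF, BAY-876 and control. Points are the 3 libraries of a group, and bars give the mean and SD. Pla2g7 has no library of a treated group above 7 TPM, while Ptges is higher in both TNF groups and Ptgs2 in both BAY-876 groups.

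Among the lysophospholipid enzymes, Pla2g7 showed the largest log2 difference of the 9 members in each of the 5 contrasts between groups at 32 h. Its level was 1.13, 0.968 and 0.54 TPM with BAY-876 and TNF, 3.50, 2.99 and 3.55 TPM with TNF, 6.90, 6.99 and 5.59 TPM with BAY-876, and 23.4, 22.6 and 21.9 TPM in control cells. The 4 groups did not overlap, and each agent alone and the pair gave lower levels than control. The log2 difference was -2.44 ± 0.13 for TNF against control (SE, limma adjusted p = 5.05e-08), -1.66 ± 0.13 for BAY-876 against control (4.29e-06), and -3.66 ± 0.13 for both agents against control (9.58e-10). As a ratio of group means, TNF lay 6.76-fold, BAY-876 3.48-fold and both agents 25.7-fold under control. A gene on the opposite strand, 1700071M16Rik, was measured at up to 0.0315 TPM with both agents and up to 0.617 TPM in control cells, and its part in the Pla2g7 values was not tested. With TNF present BAY-876 lowered Pla2g7 further, by a log2 difference of -1.22 ± 0.13 (4.15e-05). The interaction, which is the BAY-876 response with TNF minus that without, was 0.44 ± 0.18 for Pla2g7 and was not called (adjusted p = 0.282). As a ratio of group means BAY-876 lowered Pla2g7 3.81-fold with TNF and 3.48-fold without. The authors' deposited log2 fold changes were -1.87 ± 0.38 and -1.70 ± 0.14. The levels with both agents lie near 1 TPM, where log2(value + 1) understates changes, so the sign of this interaction is not read.

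Enpp2 answered BAY-876 differently with and without TNF. Its level was 21.4, 23.0 and 17.1 TPM with BAY-876 and TNF, 16.3, 12.6 and 17.9 TPM with TNF, 6.26, 5.50 and 5.87 TPM with BAY-876, and 9.09, 13.2 and 11.2 TPM in control cells. BAY-876 alone had every library under those of control, while the combination overlapped with TNF alone and lay above control. The log2 difference was -0.81 ± 0.15 for BAY-876 against control (limma adjusted p = 0.00157) and 0.38 ± 0.15 for BAY-876 with TNF against TNF (0.075, not called). The interaction was 1.19 ± 0.21 (0.0192), where 1.56% of all genes were called for it, 0.736% upwards and 0.822% downwards. That interaction was not called without BAY-876 replicate 2 (1.15, adjusted p = 0.0556) or without the filter on low values (0.0503). In the authors' deposited table the combination against TNF gave Enpp2 a log2 fold change of 0.48 with an adjusted p of 0.00545, so their test called it.

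TNF against control gave Enpp2 a log2 difference of 0.45 ± 0.15 (limma adjusted p = 0.0303), with libraries that overlapped between the groups. This call was lost on leaving out control replicate 1 or 3 (log2 0.32 and 0.46, adjusted p = 0.122 and 0.0612) or TNF replicate 1 or 3 (0.41 and 0.35, adjusted p = 0.0841 and 0.118). The combination against BAY-876 gave 1.64 ± 0.15 (4.77e-06), and none of the libraries overlapped.

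Of the ceramidases, Acer2 is the Golgi alkaline ceramidase, and its upstream sequence is shown because it alone among the 13 windows of 8 members held the NF-kappaB consensus, the motif of the transcription factor that TNF is known to switch on. The stretch runs up to the first annotated base of the gene (chr4:86874164-86874395, GRCm38.p6, plus strand), is credited to RefSeq, and is written 5′ to 3′. Capitals mark matches to the NF-kappaB consensus, of which 2 overlap each other, and to the GC box GGGCGG on either strand.
Acer2: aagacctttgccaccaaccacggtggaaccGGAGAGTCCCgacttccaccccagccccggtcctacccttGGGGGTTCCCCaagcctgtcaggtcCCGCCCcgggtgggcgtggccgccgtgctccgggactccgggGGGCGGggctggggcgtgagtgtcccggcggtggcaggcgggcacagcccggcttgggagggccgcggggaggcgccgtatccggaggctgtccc
An NF-kappaB consensus match was found in 3.9% of all 32851 windows of 250 bases and a GC box in 32.7%. Such a match is a description of letters and not a binding site.

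Acer2 was expressed at low levels. It stood at 3.86, 3.95 and 2.85 TPM with BAY-876 and TNF, 4.16, 4.22 and 3.44 TPM with TNF, 2.10, 2.36 and 2.34 TPM with BAY-876, and 2.07, 3.01 and 2.04 TPM in control cells. TNF libraries all lay above control libraries, with a log2 difference of 0.56 ± 0.14 (SE, limma adjusted p = 0.00761). Both agents against BAY-876 gave 0.47 ± 0.14 (0.02), a call that was lost without BAY-876 replicate 1 (0.43, adjusted p = 0.0625) and without replicate 1 or 2 of the combination (0.42 and 0.40, adjusted p = 0.0643 and 0.072). BAY-876 alone gave -0.03 ± 0.14 and was not called (0.876).

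Acer3, the alkaline ceramidase that prefers unsaturated long-chain ceramides, was lower in all treated groups. Its level was 9.97, 9.81 and 9.67 TPM with BAY-876 and TNF, 9.74, 8.63 and 7.83 TPM with TNF, 7.45, 7.47 and 6.62 TPM with BAY-876, and 14.5, 15.9 and 12.9 TPM in control cells. Control libraries stood above those of each treatment, and BAY-876 libraries were the lowest. The log2 difference was -0.92 ± 0.10 for BAY-876 (limma adjusted p = 3.12e-05), -0.67 ± 0.10 for TNF (0.000142) and -0.51 ± 0.10 for both agents (0.000628), each against control. Adding BAY-876 to TNF gave 0.16 ± 0.10 and was not called (0.235), and the interaction was 1.07 ± 0.13 (0.00328). Acer3 and Enpp2 were the 2 members with a called interaction. The share of Acer2 in the summed TPM of both ceramidases was 26.4 ± 3.23% with BAY-876 and TNF, 31.1 ± 1.54% with TNF, 24.0 ± 2.05% with BAY-876 and 14.0 ± 1.75% in control cells (SD, n = 3 each).

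Sphk1, the sphingosine kinase, was near 1 TPM, at 0.586, 0.282 and 0.605 TPM with BAY-876 and TNF, 0.719, 0.326 and 0.444 TPM with TNF, 0.881, 0.909 and 1.32 TPM with BAY-876, and 1.72, 2.07 and 1.23 TPM in control cells. All libraries with TNF lay under all control libraries. The log2 difference was -0.83 ± 0.18 for TNF and -0.39 ± 0.18 for BAY-876, each against control. No library with TNF reached the filter value of 1 TPM, so the TNF difference is a description and its p is not given as support. Sgpl1, the lyase, stood at 44.5, 36.5 and 40.8 TPM with BAY-876 and TNF, 42.9, 40.1 and 44.4 TPM with TNF, 48.9, 47.6 and 51.4 TPM with BAY-876, and 46.2, 49.6 and 45.8 TPM in control cells. Neither agent alone gave a call, with -0.15 ± 0.07 for TNF (0.109) and 0.06 ± 0.07 for BAY-876 (0.532). In the authors' deposited table BAY-876 gave Sgpl1 a log2 fold change of 0.16 with an adjusted p of 0.0241. Both agents against BAY-876 gave -0.28 ± 0.07 (limma adjusted p = 0.00766).

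For the prostaglandin enzymes the 250 bases before the RefSeq start are shown because these 3 genes responded in 3 different ways in the same cells. Ptgs1 lies at chr2:36230176-36230425 (plus strand), Ptgs2 at chr1:150099781-150100030 (plus strand) and Ptges at chr2:30903298-30903547 (minus strand), all on GRCm38.p6 and credited to RefSeq. Capitals mark matches on either strand to the GC box GGGCGG and, in Ptgs2, to the C/EBP letters TTGCNNAA.
Ptgs1: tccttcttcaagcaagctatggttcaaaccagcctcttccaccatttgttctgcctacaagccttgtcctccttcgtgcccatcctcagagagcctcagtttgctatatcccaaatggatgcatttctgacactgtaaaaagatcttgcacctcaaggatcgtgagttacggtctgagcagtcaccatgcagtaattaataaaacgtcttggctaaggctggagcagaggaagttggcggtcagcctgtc
Ptgs2: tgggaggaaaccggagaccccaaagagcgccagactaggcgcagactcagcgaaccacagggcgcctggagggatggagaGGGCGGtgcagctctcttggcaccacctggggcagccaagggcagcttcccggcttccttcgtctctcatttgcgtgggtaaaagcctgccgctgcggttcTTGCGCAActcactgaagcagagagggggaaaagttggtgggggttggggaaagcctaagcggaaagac
Ptges: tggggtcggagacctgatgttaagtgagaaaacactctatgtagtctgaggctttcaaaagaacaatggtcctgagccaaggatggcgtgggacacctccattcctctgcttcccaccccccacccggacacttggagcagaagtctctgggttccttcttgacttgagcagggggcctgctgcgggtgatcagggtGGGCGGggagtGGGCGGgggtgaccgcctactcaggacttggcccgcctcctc
The C/EBP letters were found in 9.56% of all windows and stood 69 to 62 bases before the Ptgs2 start. The AP-1 letters TGANTCA, the CRE TGACGTCA, the E-box CACGTG and the ATF4 letters TGATGNAA, present in 6.75%, 1.55%, 6.02% and 3.45% of all windows, had no match in these 3 stretches, and Ptgs1 had no match to any motif searched.

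Ptgs1, the constitutive cyclooxygenase, was among the higher expressed members. Its level was 125, 121 and 113 TPM with BAY-876 and TNF, 112, 99.1 and 102 TPM with TNF, 212, 203 and 215 TPM with BAY-876, and 239, 219 and 215 TPM in control cells. Both TNF groups lay wholly under both groups without TNF. TNF lowered it by a log2 difference of -1.10 ± 0.06 (SE, limma adjusted p = 4.73e-08), and in the presence of BAY-876 by -0.81 ± 0.06 (5.29e-07). BAY-876 alone gave -0.09 ± 0.06 and was not called (0.22). Added to TNF it gave 0.20 ± 0.06 (0.0195), a call lost without TNF replicate 2 or 3 (0.16 and 0.18, adjusted p = 0.0776 and 0.0622) and without replicate 1 or 2 of the combination (0.17 and 0.19, adjusted p = 0.0679 and 0.0518).

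Ptgs2, the inducible cyclooxygenase, followed BAY-876 and not TNF. Its level was 13.7, 11.5 and 13.9 TPM with BAY-876 and TNF, 7.25, 5.75 and 6.85 TPM with TNF, 12.1, 11.6 and 12.7 TPM with BAY-876, and 5.72, 5.75 and 7.02 TPM in control cells. Every library with BAY-876 lay above every library without it. BAY-876 raised Ptgs2 by 0.88 ± 0.11 against control (limma adjusted p = 9.67e-05) and by 0.88 ± 0.11 with TNF present (0.000114), and the interaction was 0.00 ± 0.15 (0.996). TNF gave 0.09 ± 0.11 (0.536) and was not called. Ptgs2 made up 9.85 ± 1.13% of the summed cyclooxygenase TPM with BAY-876 and TNF, 5.97 ± 0.43% with TNF, 5.46 ± 0.12% with BAY-876 and 2.69 ± 0.43% in control cells (SD, n = 3 each).

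Ptges rose with TNF and was lowered by BAY-876. Its level was 88.0, 88.5 and 77.9 TPM with BAY-876 and TNF, 114, 114 and 116 TPM with TNF, 32.5, 29.1 and 31.7 TPM with BAY-876, and 51.6, 39.1 and 40.8 TPM in control cells. The 4 groups did not overlap. TNF gave a log2 difference of 1.38 ± 0.09 against control (limma adjusted p = 2.97e-07), and 1.42 ± 0.09 between both agents and BAY-876 (2.44e-07). BAY-876 gave -0.47 ± 0.09 against control (0.00179) and -0.43 ± 0.09 with TNF present (0.00342), with an interaction of 0.04 ± 0.13 (0.921).

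Set against control, BAY-876 with TNF called all 9 members, of which Sphk1 had passed the filter through libraries without TNF. This contrast had an all-gene median of -0.13 on the log2 scale that quantile normalisation moved to 0.02, so each difference is given here relative to the median of all genes. On that scale Ptgs2 stood at 1.10, Ptges at 1.07, Enpp2 at 0.96 and Acer2 at 0.57, while Pla2g7 stood at -3.53, Ptgs1 at -0.77, Sphk1 at -0.71, Acer3 at -0.38 and Sgpl1 at -0.08. The Sgpl1 call was lost under quantile normalisation (-0.14, limma adjusted p = 0.113) and without control replicate 2 or replicate 2 of the combination (-0.18 and -0.14, adjusted p = 0.0779 and 0.0874). The Acer2 call was lost without control replicate 1 or 3 (0.37 and 0.37, adjusted p = 0.0741 and 0.077) and without replicate 1 or 2 of the combination (0.38 and 0.37, adjusted p = 0.0682 and 0.076). Among all called genes 35.6% were higher in this contrast, against 51.2% after quantile normalisation. The same split was 30.8% and 49.3% for BAY-876 against control, and 30.5% and 47.6% for the combination against TNF.

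**Figure D2:**
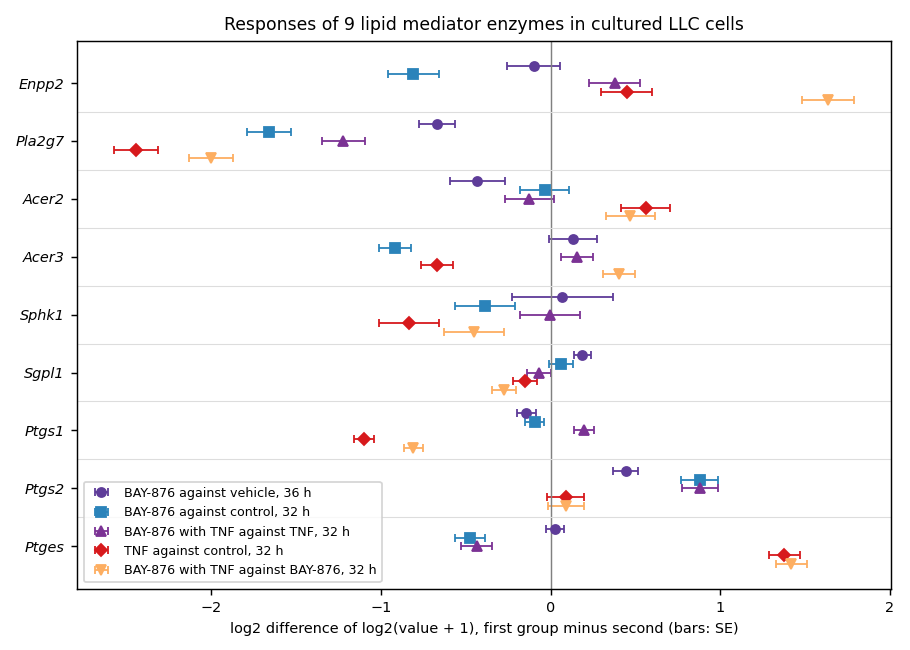
Log2 differences of log2(value + 1) with SE for the 9 enzymes in 5 contrasts of cultured LLC cells, first group minus second. The contrasts share groups, so the points of a gene are not independent. BAY-876 lies above 0 for Ptgs2 and under 0 for Pla2g7 at both times, and both TNF contrasts lie above 1 for Ptges and under 0 for Ptgs1.

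At 36 h, in a table normalised separately, BAY-876 changed 3 of the 9 members. Pla2g7 had 304, 308 and 259 normalised counts with BAY-876, against 463, 428 and 492 with vehicle. Ptgs2 had 1165, 1374 and 1272 with BAY-876, against 944, 912 and 941 with vehicle. In both genes the groups did not overlap, with a log2 difference of -0.67 ± 0.11 for Pla2g7 (limma adjusted p = 0.00532) and 0.44 ± 0.08 for Ptgs2 (0.00716). Sgpl1 had 2581, 2536 and 2447 normalised counts with BAY-876, against 2235, 2216 and 2191 with vehicle, a difference of 0.19 ± 0.05 (0.0412). The Sgpl1 groups did not overlap, but the call was lost on leaving out BAY-876 replicate 2 or 3 or any vehicle library (log2 0.18 to 0.21, adjusted p = 0.0682 to 0.138).

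The other 6 members were not called at 36 h. Acer2 had 122, 179.7 and 156 normalised counts with BAY-876, against 184, 211 and 217 with vehicle (log2 -0.43 ± 0.16, limma adjusted p = 0.104). Ptgs1 had 2952, 3146 and 3312 with BAY-876, against 3505, 3396 and 3479.9 with vehicle (-0.14 ± 0.06, 0.121). Both had libraries that did not overlap. Enpp2 gave -0.10 ± 0.15, Acer3 0.13 ± 0.14, Sphk1 0.07 ± 0.30 and Ptges 0.03 ± 0.05, all with overlapping libraries. The lower Enpp2, Acer3 and Ptges seen with BAY-876 at 32 h were thus not called at 36 h, and whether the experiments differ was not tested.

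Other genes of the same routes were counted from 6 lists of 107 genes, 1 of which was not found under its symbol. Over all genes the shares called were 45.6% for TNF, 37.4% for BAY-876 at 32 h and 14.4% for BAY-876 at 36 h, and no list count is read as standing apart from them. In the LPA list TNF raised 2 and lowered 3 of 11 tested genes, with the receptor Lpar1 at 27.5 ± 2.34 TPM with TNF, against 50.9 ± 3.73 TPM in control cells (SD, n = 3 each, limma adjusted p = 2.80e-05). BAY-876 raised 2 and lowered 3 of the 11, and gave Lpar1 a level of 69.0 ± 4.45 TPM (0.00567). In the list of platelet-activating factor and lysophospholipid remodelling TNF raised 3 and lowered 4 of 16. Its smallest p belonged to Gdpd1, a lysophospholipase D, at 7.96 ± 0.11 TPM with TNF, against 2.96 ± 0.82 TPM in control cells (2.80e-05). Lpcat3, which puts arachidonate into lysophosphatidylcholine, was the only gene of the 6 lists with a called interaction (-0.87 ± 0.12, 0.00659): it was 29.7 ± 1.47 TPM with BAY-876 and TNF, against 42.6 ± 4.24 TPM with TNF, and 63.8 ± 6.77 TPM with BAY-876, against 49.2 ± 3.13 TPM in control cells.

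In the ceramide list TNF raised 6 and lowered 8 of 26 tested genes. The sphingomyelinases Smpd2 and Smpd1, which release ceramide from sphingomyelin, fell to 9.21 ± 0.35 and 5.60 ± 0.62 TPM with TNF, against 16.5 ± 0.44 and 10.1 ± 0.24 TPM in control cells (limma adjusted p = 1.54e-05 and 4.35e-05). The neutral ceramidase Asah2 fell to 4.27 ± 0.14 TPM, against 10.6 ± 1.20 TPM in control cells (2.04e-05). BAY-876 raised 6 and lowered 5 of the 26 at 32 h, with the ceramide transfer protein gene Col4a3bp at 19.7 ± 0.73 TPM with BAY-876, against 11.9 ± 0.89 TPM in control cells (2.56e-05), and Sptlc2, a subunit of the first enzyme of sphingolipid synthesis, at 57.2 ± 2.91 TPM with BAY-876, against 74.8 ± 3.51 TPM in control cells (0.000394). At 36 h BAY-876 raised 5 of 26. Among them Ugcg, the glucosylceramide synthase, had 1009.8 ± 21.5 normalised counts with BAY-876, against 717 ± 22.5 with vehicle (0.0028).

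Among 7 tested genes of the sphingosine 1-phosphate list TNF raised 1 and lowered 1. The exporter Spns2 fell to 1.46 ± 0.20 TPM with TNF, against 5.22 ± 0.65 TPM in control cells (limma adjusted p = 4.77e-05), and the receptor S1pr2 rose to 21.4 ± 1.06 TPM, against 13.8 ± 1.31 TPM in control cells (4.93e-05). In the list of arachidonate release and prostanoid synthases TNF raised 3 and lowered 1 of 9, and BAY-876 raised 1 and lowered 2. Akr1b3, an aldose reductase that can also act as a prostaglandin F synthase, reached 657 ± 44.4 TPM with both agents, 446 ± 11.1 TPM with TNF and 411 ± 19.3 TPM with BAY-876, against 262 ± 4.81 TPM in control cells. Pla2g4a, the cytosolic phospholipase that frees arachidonate, was at 22.0 ± 0.27 TPM with TNF, against 27.7 ± 2.19 TPM in control cells (0.00495). Ptgr1, a reductase that inactivates prostaglandins and leukotriene B4, was at 10.6 ± 1.01 TPM with both agents, 19.1 ± 1.15 TPM with TNF and 13.8 ± 1.40 TPM with BAY-876, against 26.2 ± 0.71 TPM in control cells, and each difference from control was called.

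On day 16 markers of several other cell types were measured in the sorted OT1 libraries beside those of T cells. The 10 T cell markers summed to 4731 to 7826 TPM in OT1 libraries, against 8.53 to 15.6 TPM in tumour libraries. The 10 LLC markers summed to 689 to 940 TPM in OT1 libraries, against 4100.1 to 4506 TPM in tumour libraries. S100a6 alone was 556 to 698 TPM in OT1 libraries. The 15 myeloid markers summed to 1209, 9133, 4289, 4341 and 35687 TPM in OT1 replicates 1 to 5, against 65.8 to 382 TPM in tumour libraries. The 7 platelet markers summed to 136 to 593 TPM in OT1 libraries, against 2.36 to 17.8 TPM in tumour libraries. Of these, Pf4 alone was 111 to 581 TPM in OT1 libraries and Ppbp 8.50 to 25.2 TPM. Median Itga2b was 0.352 TPM in OT1 libraries, against 1.05 TPM in tumour libraries. Gp9, Gp1bb, Treml1 and Clec1b had OT1 medians of 0 to 0.241 TPM. B cell markers summed to 68.2 to 135 TPM in OT1 libraries, against 1.04 to 2.45 TPM in tumour libraries. Ighm alone was 62.8 to 134 TPM in OT1 libraries. Median Cd79a was 0.0710 TPM in OT1 and 1.60 TPM in tumour libraries, and median Cd79b was 1.53 and 0.0844 TPM. Neutrophil markers summed to 34.9 to 166 TPM in OT1 libraries, against 0.389 to 26.2 TPM in tumour libraries. Endothelial markers summed to 44.6 to 60.2 TPM in OT1 libraries, against 1.68 to 9.89 TPM in tumour libraries. Pecam1 alone was 41.4 to 59.2 TPM in OT1 libraries. By medians Tie1, Emcn and Cldn5 were lower in OT1 than in tumour libraries, and Cdh5, Kdr and Vwf were higher. Mast cell markers summed to 8.72 to 35.0 TPM in OT1 libraries, against 0.479 to 1.57 TPM in tumour libraries. Erythroid markers summed to 65.0 to 2781 TPM in OT1 libraries, against 10.1 to 899 TPM in tumour libraries. Fibroblast markers summed to 35.9 to 122 TPM in OT1 libraries, against 572 to 1282 TPM in tumour libraries. The fibroblast list also summed to 1116 to 1153 TPM in the control LLC cultures at 32 h, so it does not set fibroblasts apart from LLC cells. In sorted bulk samples fewer cells of a type and less RNA per cell cannot be told apart. In this comparison 74.5% of 13511 genes were called (30.1% higher and 44.4% lower), and of the members 1 was higher and 5 were lower in OT1 cells, with Enpp2 and Acer2 among those lower. The libraries of both groups did not overlap for 4 members, against 63.1% of all genes tested. With OT1 replicates 2, 4 and 5 left out, a choice made after the marker sums were seen, 69.6% of genes were called (27.4% higher and 42.2% lower). In that fit 7 members were called, all lower in OT1 cells, again with Enpp2 and Acer2 among them. The myeloid sum of replicate 3, which was kept, was 4289 TPM, close to the 4341 TPM of replicate 4, so this fit is not free of myeloid transcripts.

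Ptges and Ptgs1 were far lower in OT1 cells than in tumour cells. Ptges was 21.3, 10.8, 13.3, 16.2 and 5.80 TPM in OT1 cells, against 168, 172, 193, 143 and 183 TPM in tumour cells. Ptgs1 was 10.1, 5.55, 6.25, 11.4 and 10.1 TPM in OT1 cells, against 55.4, 59.4, 77.0, 88.5 and 75.4 TPM in tumour cells. Neither gene overlapped between the groups, with a log2 difference of -3.67 ± 0.26 for Ptges (SE, limma adjusted p = 1.46e-07) and -2.92 ± 0.20 for Ptgs1 (1.17e-07). OT1 libraries held Ptges at 3.38 to 12.4% and Ptgs1 at 7.81 to 16.0% of the tumour mean, while the summed LLC markers in them stood at 16.3 to 22.2% of the tumour mean. Most of that OT1 sum was S100a6, at 556 to 698 TPM. Median Krt8 was 26.8 TPM in OT1 libraries, against 400 TPM in tumour libraries. Median Rhox5 was 37.5 against 617 TPM, and median Axl 41.4 against 252 TPM. The part of transcripts from tumour cells in the OT1 levels of Ptges and Ptgs1 was not tested.

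Ptgs2 was 8.48, 16.98, 10.7, 13.7 and 25.8 TPM in OT1 cells, against 23.9, 28.1, 22.9, 21.9 and 23.4 TPM in tumour cells. OT1 replicate 5, the library with the most myeloid transcripts, lay inside the tumour range, and the other OT1 libraries lay under it. Ptgs2 in the OT1 libraries rose in the order of their summed myeloid markers, as Pla2g7 and Sgpl1 did. The part of myeloid transcripts in the OT1 level of Ptgs2 was not tested. The log2 difference was -0.72 ± 0.24 (limma adjusted p = 0.0151). Of the summed cyclooxygenase TPM, Ptgs2 made up 62.1 ± 12.2% in OT1 libraries and 25.7 ± 5.17% in tumour libraries (SD, n = 5 each), whichever cells the transcripts came from.

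Enpp2 was 0.523, 0.372, 0.22, 0.633 and 0.119 TPM in OT1 cells, against 2.56, 4.78, 4.43, 10.8 and 4.31 TPM in tumour cells, with no overlap and a log2 difference of -2.11 ± 0.27. Since no OT1 library reached 1 TPM, this is a description. Pla2g7 was 21.6, 117, 56.0, 57.8 and 312 TPM in OT1 cells, against 20.7, 19.2, 19.4, 28.2 and 18.7 TPM in tumour cells. The OT1 libraries followed the order of their summed myeloid markers, lowest in replicate 1 and highest in replicate 5. The log2 difference was 1.82 ± 0.54 (limma adjusted p = 0.00956), and it was 0.71 without OT1 replicates 2, 4 and 5 (0.0711, not called). The part of myeloid transcripts in the OT1 level of Pla2g7 was not tested.

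**Figure D3:**
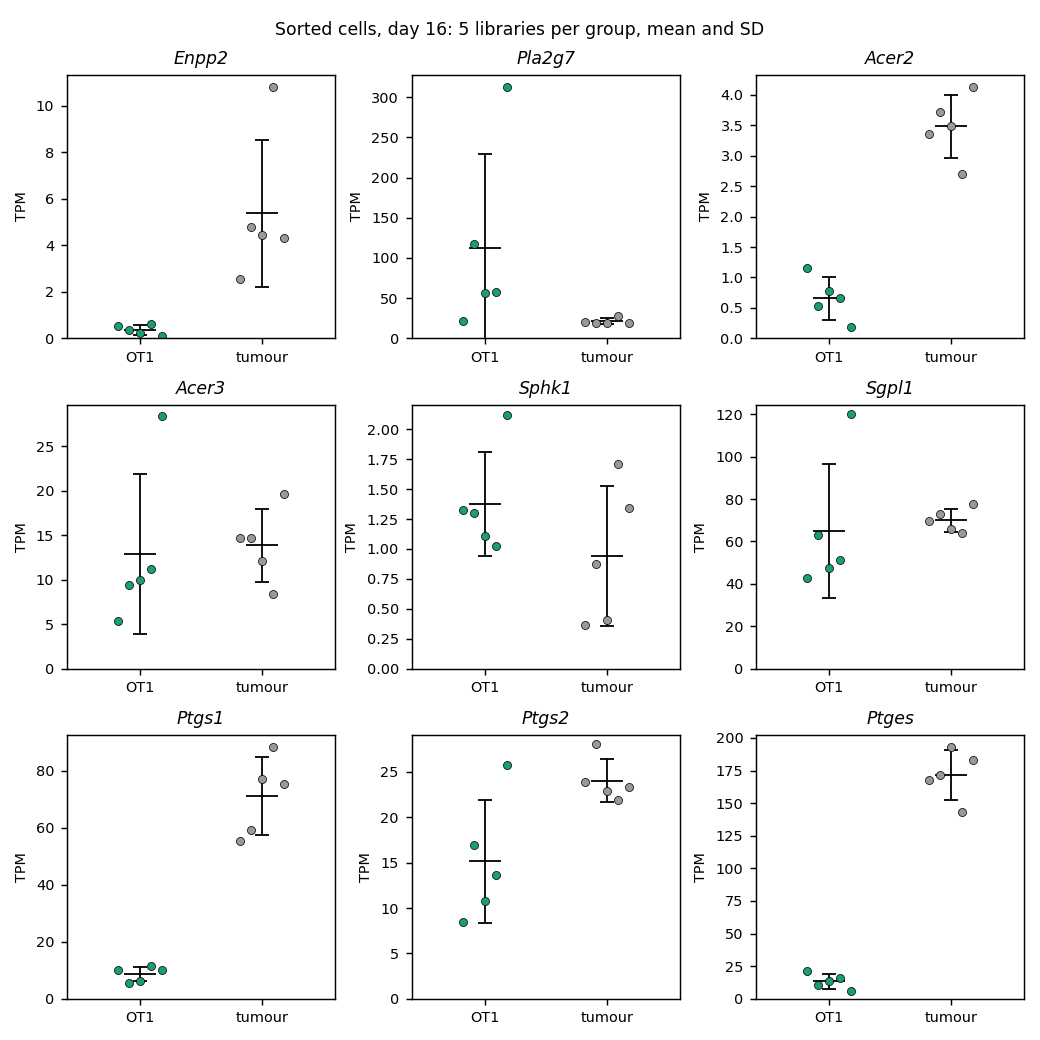
Levels of the 9 enzymes in sorted OT1 cells and tumour cells on day 16, in TPM on linear axes from 0. Points are the 5 libraries of a group, and bars give the mean and SD. Enpp2, Acer2, Ptgs1 and Ptges show no overlap, and Pla2g7 spreads from 21.6 to 312 TPM in OT1 cells, where its lower SD bar is cut at 0.

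Of the ceramide and sphingosine enzymes, Acer2 was 1.15, 0.532, 0.773, 0.664 and 0.179 TPM in OT1 cells, against 3.36, 3.72, 3.48, 2.71 and 4.14 TPM in tumour cells. The groups did not overlap, and the log2 difference of -1.45 ± 0.17 is a description, since 1 OT1 library reached 1 TPM. Acer3 was 5.32, 9.40, 9.94, 11.2 and 28.4 TPM in OT1 cells, against 14.7, 14.6, 12.1, 8.35 and 19.6 TPM in tumour cells, and was not called (-0.25 ± 0.35, limma adjusted p = 0.529). Sgpl1 was 43.0, 63.1, 47.3, 51.4 and 120.2 TPM in OT1 cells, against 69.6, 73.0, 65.9, 63.9 and 77.7 TPM in tumour cells, and was not called (-0.21 ± 0.23, 0.429). Sgpl1 in the OT1 libraries followed the order of their summed myeloid markers, and the part of myeloid transcripts in its level was not tested. OT1 replicate 5 was the highest library for both Acer3 and Sgpl1. Without it both were lower in OT1 cells, with -0.57 for Acer3 (limma adjusted p = 0.0489) and -0.45 for Sgpl1 (0.0029), and without OT1 replicates 2, 4 and 5 the values were -0.79 (0.0451) and -0.62 (0.000686). Sphk1 was 1.33, 1.30, 1.11, 1.03 and 2.12 TPM in OT1 cells, against 0.366, 0.872, 0.407, 1.71 and 1.339 TPM in tumour cells, which overlapped (0.33 ± 0.21, 0.177).

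**Figure D4:**
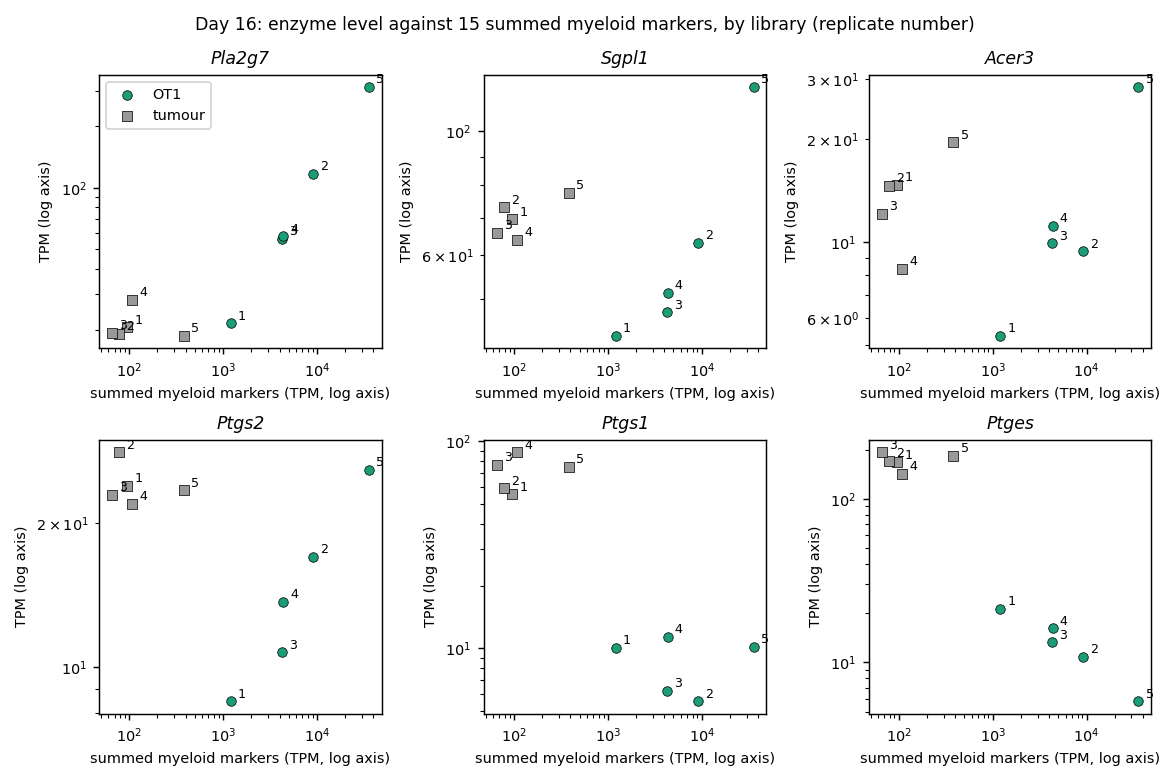
Levels of 6 enzymes in day 16 libraries against the summed TPM of 15 myeloid markers, both on log axes, with replicate numbers beside the points of OT1 and tumour libraries. Among OT1 libraries Pla2g7 runs with the marker sum up to 312 TPM in replicate 5, and Ptgs2 and Sgpl1 rise in the same order. Ptges runs the other way, from 21.3 TPM in replicate 1 to 5.80 TPM in replicate 5.

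Receptors of these lipids differed in both directions between OT1 cells and tumour cells, in a comparison that called 30.1% of all genes higher and 44.4% lower. No list count below is read as standing apart from these shares. Of 8 tested genes for prostanoid receptors, transport and breakdown 4 were higher and 3 lower in OT1 cells. The prostaglandin E2 receptor Ptger2 averaged 24.6 ± 1.62 TPM in OT1 cells and 0.0259 ± 0.0328 TPM in tumour cells (SD, n = 5 each). Ptger4, another receptor for prostaglandin E2, averaged 14.6 ± 6.02 TPM in OT1 cells and 0.118 ± 0.163 TPM in tumour cells. The thromboxane receptor Tbxa2r averaged 27.2 ± 4.31 TPM in OT1 cells and 0.249 ± 0.189 TPM in tumour cells. Of 7 sphingosine 1-phosphate genes 3 were higher and 4 lower in OT1 cells. The receptor S1pr4 averaged 51.8 ± 6.89 TPM in OT1 cells and 0.0708 ± 0.0523 TPM in tumour cells. The exporter Spns2 averaged 1.37 ± 0.65 TPM in OT1 cells and 13.9 ± 3.51 TPM in tumour cells. Its OT1 libraries ran from 0.856 to 2.17 TPM, not all at 1 TPM. It met the filter through the tumour libraries, so its difference is a description. Of the receptors lower in OT1 cells, 2 are named after their values were seen. The sphingosine 1-phosphate receptor S1pr2 averaged 8.30 ± 2.83 TPM in OT1 cells and 18.9 ± 3.10 TPM in tumour cells (limma adjusted p = 0.000231). The prostaglandin F receptor Ptgfr averaged 0.141 ± 0.191 TPM in OT1 cells and 2.78 ± 1.10 TPM in tumour cells. Ptgfr also met the filter through the tumour libraries, and its difference is a description.

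Of 12 LPA genes 3 were higher and 7 lower in OT1 cells. The receptor Lpar5 averaged 17.2 ± 3.95 TPM in OT1 cells and 0.32 ± 0.264 TPM in tumour cells. The receptor Lpar1 averaged 1.77 ± 0.25 TPM in OT1 cells and 17.4 ± 3.70 TPM in tumour cells (limma adjusted p = 1.77e-08). Of 11 genes for arachidonate release and prostanoid synthases 2 were higher and 8 lower, with the cytosolic synthase and co-chaperone Ptges3 at 76.9 ± 13.7 TPM in OT1 cells and 207 ± 17.8 TPM in tumour cells (6.46e-07). Of 25 ceramide genes 7 were higher and 8 lower, with the ceramide synthase Cers4 at 16.5 ± 4.10 TPM in OT1 cells and 2.20 ± 0.39 TPM in tumour cells (1.58e-07). Without OT1 replicates 2, 4 and 5 the call of Lpar1 held, at log2 -2.73. Spns2 stood at log2 -2.55 in that fit, given as a description. In that fit the log2 differences of Ptger2, Ptger4, Tbxa2r, S1pr4 and Lpar5 were 4.73, 3.50, 4.66, 5.55 and 3.70. These 5 receptors had tumour means under 1 TPM and passed the filter through OT1 libraries. Their differences are therefore read as descriptions, and no p is given for them as support. The B cell sums of the OT1 replicates kept, 1 and 3, were 135 and 131 TPM, and the part of other cells in the receptor levels was not tested.

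**Figure D5:**
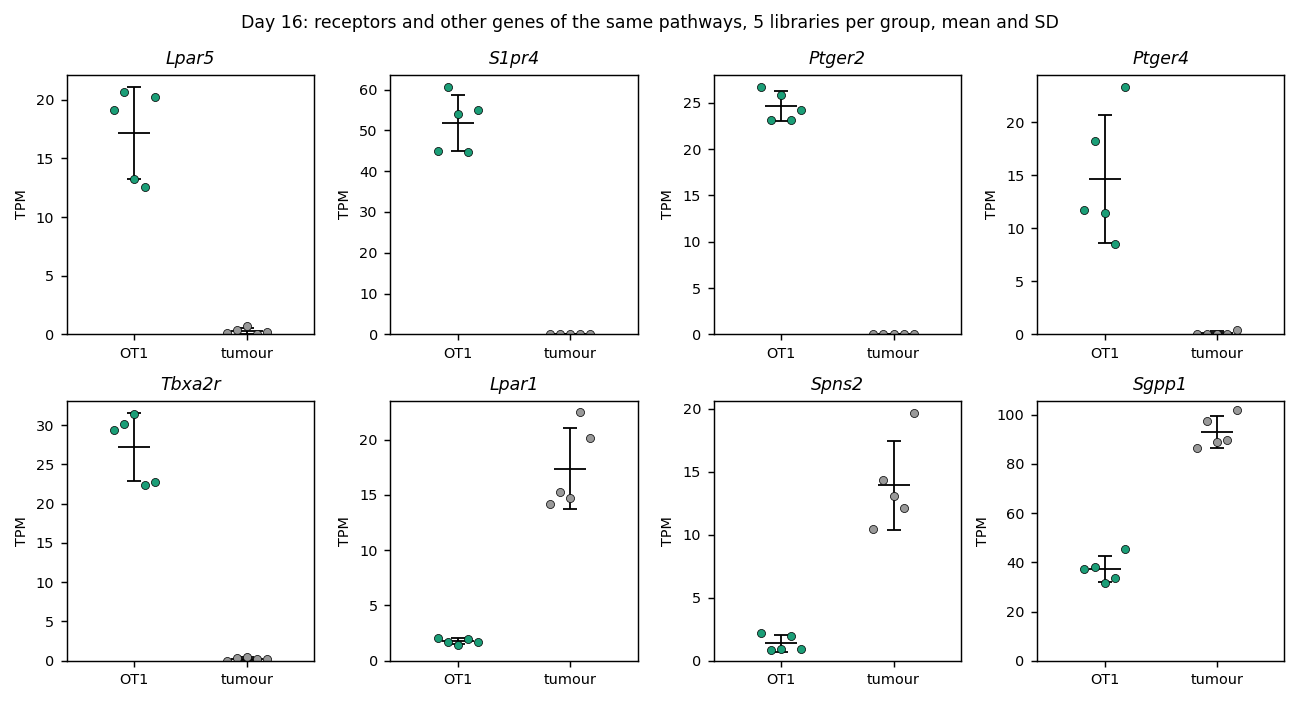
Receptors and other genes of the same routes in sorted OT1 cells and tumour cells on day 16, in TPM on linear axes from 0, with 5 libraries per group and the mean and SD. Lpar5, S1pr4, Ptger2, Ptger4 and Tbxa2r stand above tumour cells in each OT1 library, and Lpar1, Spns2 and Sgpp1 stand below.

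By the order of TPM across the 32 h and day 16 tables, which were scaled separately and are set side by side as levels only, Ptges was highest in day 16 tumour cells at 171.6 ± 18.9 TPM, followed by TNF at 115 ± 1.09 TPM, and lowest in OT1 cells at 13.5 ± 5.80 TPM. Each group in its order stood clear of the next. Pla2g7 was highest in OT1 cells at 113 ± 117 TPM, with control cells at 22.6 ± 0.76 TPM and day 16 tumour cells at 21.2 ± 3.93 TPM overlapping, and lowest with BAY-876 and TNF at 0.878 ± 0.304 TPM.

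The pattern of 4 members over the 12 libraries at 32 h was wide enough, with group means spanning at least 1 on the log2 scale, to look for genes of like pattern among 9193 genes. By Pearson r, as a description over libraries that share their groups, Ptges was closest to Klc1 (0.996), Tapbp (0.995) and Nudc (0.989), and Ptgs1 to Rhou (0.993), Spp1 (0.992) and Sema3a (0.990). Pla2g7 was closest to Uaca (0.996), Copa (0.996) and H1f0 (0.993), and Enpp2 to Cpe (0.958), Pmm1 (0.956) and Klf9 (0.946).

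All 9 genes are annotated as protein-coding in GENCODE M21 on GRCm38, with Ptges at chr2:30889471-30929863, Ptgs1 at chr2:36230426-36252272, Ptgs2 at chr1:150100031-150108227, Pla2g7 at chr17:43568098-43612201 and Enpp2 at chr15:54838901-54952892. Acer2 lies at chr4:86874396-86934822, Acer3 at chr7:98206389-98321208, Sphk1 at chr11:116530925-116536674 and Sgpl1 at chr10:61098642-61147703. A gene on the opposite strand overlaps Enpp2, Pla2g7, Sphk1 and Ptgs1, and without stated strand counting their reads cannot be told apart. The largest level of such a partner was 3.94 TPM, for 1700071M16Rik beside Pla2g7 in an OT1 library, where Pla2g7 was at least 21.6 TPM. At 32 h the same partner reached 0.617 TPM in control cells, where Pla2g7 was at least 21.9 TPM, and 0.341 TPM with TNF, where Pla2g7 was at least 2.99 TPM.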

How the data were processed

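RNA of mouse LLC cells and of sorted day 16 OT1 and tumour cells was sequenced. STAR 2.6.1d, Salmon (0.13.1 and 0.14.1), DESeq2 1.34.0 and mm10 are named in the submitters' processing notes. What each did, whether counting used strand, and the annotation release are not given in the sources used here. Deposited 36 h values are a normalised count signal, made by the authors with DESeq2 per the table's name. Since low values there are no whole multiples of a step, reads could not be restored and a count test was not possible. TPM was deposited for 32 h and day 16, and the authors scaled each library to 1000000, which leaves the depth unknown and allows no counting interval. For 4 contrasts at 32 h the authors deposited a log2 fold change, a test score and adjusted p-values, which are quoted as theirs. Columns without a sample in the labels, 24 in all, stayed unused.

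Values were taken to log2(value + 1), which understates changes at low levels. The filter asked for 1 TPM (10 normalised counts) in at least 3 libraries, or 5 libraries on day 16. The model was limma 3.58.1 (R 4.3.3) over all genes with a mean-variance trend, in which the 12 libraries at 32 h shared a single fit, and Benjamini-Hochberg adjustment ran over all genes tested with a threshold of 0.05. The fit was tested on simulated data. No test crossed tables. Levels carry the SD over libraries and log2 differences the SE. The members, the 6 pathway lists and the 10 marker lists were chosen with earlier results of these data known. The text names all 9 members, the genes of each list with the smallest p among those called (at most 3 per comparison), and for likeness the 3 genes with the highest r. The deviations of same-numbered libraries correlated at -0.19 to 0.12 in the culture tables and at 0.0453 to 0.111 on day 16, not all over 0.1, and the labels give a number no shared animal, so libraries were not treated as paired. Replicates of a group correlated at 0.9141 to 0.9892, so none was a copy. Alternatives were another pseudocount, filter, normalisation, variance model or set of libraries, the replicate block, and each library left out. Sequences come from the RefSeq promoter set on GRCm38.p6, with 13 windows for 8 members. Enpp2 is named only.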

Additional observations from a re-analysis of the deposited data

Results flagged for a closer look

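In 5 of 18 groups of member values on day 16, 1 library stood apart from the other 4 by Dixon's criterion, where chance gives about 1 in 20. OT1 replicate 5 had Acer3 at 28.4 TPM, Sgpl1 at 120.2 TPM and Sphk1 at 2.12 TPM, each the highest of its group, and it is also the OT1 library with the highest myeloid marker sum, 35687 TPM. Tumour replicate 4 had Enpp2 at 10.8 TPM and Pla2g7 at 28.2 TPM, each the highest of the tumour libraries. Its summed myeloid markers were 108 TPM, within the tumour range of 65.8 to 382 TPM. Its summed erythroid markers were 899 TPM, against 10.1 to 181 TPM in the other tumour libraries. The part of other cells in these values was not tested.

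The response to BAY-876 differed with and without TNF, by the interaction of the limma fit, for 3 genes of the members and lists. The interaction was 1.19 for Enpp2 (adjusted p = 0.0192), 1.07 for Acer3 (0.00328) and -0.87 for Lpcat3 (0.00659), on the log2 scale. For Acer3 all 3 BAY-876 libraries lay under the control libraries, while libraries with both agents overlapped with TNF.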

How the results depend on the processing

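Over all alternatives 946 member values were refitted, of which 902 kept their direction and their side of the threshold, 35 kept the direction and lost the call, 9 gained a call and 0 reversed. Of 43 calls among 72 member comparisons, 35 held under every alternative that tested the member. The filter on a mean of at least 5 TPM did not test Sphk1 and Acer2 at 32 h or Enpp2 and Acer2 on day 16. The 35 include calls given above as descriptions only, those of Sphk1 at 32 h and of Enpp2 and Acer2 on day 16. The count of members with a called interaction was 2, and it was 1 with no filter on low values and 1 to 2 on leaving out single libraries, where BAY-876 replicate 2 took the Enpp2 call away. Fitting only the groups compared took away the calls of Enpp2 for TNF (0.0589), of Acer2 and Sgpl1 for both agents against control (0.0599 and 0.0528) and of Ptgs1 for both agents against TNF (0.0503). With the replicate number as a block, 2 calls were lost, those of Sgpl1 for BAY-876 at 36 h (limma adjusted p = 0.0712) and of Enpp2 for TNF (0.0518), and no other member call changed. The numbers do not pair the libraries at 36 h or 32 h; on day 16, 4 of 5 libraries correlated best with their own number, which is a hint from the data and not from the design. Over all genes, BAY-876 at 36 h called 1868 genes, against 841 without the variance trend. It called 643 to 1075 on leaving out BAY-876 replicate 3 or a single vehicle library. The interaction called 199 genes. It called 110 to 131 on leaving out control replicate 1 or 2, BAY-876 replicate 2 or 3, or TNF replicate 2 or 3. Leaving out any other single library moved these counts by a smaller factor. The causes were not tested. TPM without counts sets the limit for Sphk1, Acer2 and day 16 Enpp2, whose low values carry an unknown counting error, and the compositional shift of the 32 h groups limits differences near 0.1 on the log2 scale.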
